A study of Homo sapiens and synthetic construct with 129 samples.

Results

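The sgRNA pairs described here target 13 genes of the major facilitator superfamily domain (MFSD) group of transporters in HCT 116, a human colorectal carcinoma cell line. The genes are MFSD2A, MFSD2B, MFSD3, MFSD4B, MFSD5, MFSD6, MFSD8, MFSD9, MFSD10, MFSD11, MFSD13A, MFSD14A and MFSD14B. They were found by name: every sgRNA pair of the count tables with a gene starting in MFSD on either side was taken, other than MFSD1 and MFSD12. This gave 103617 of 1116418 sgRNA pairs (9.28%). Of them, 3924 pair a member with an olfactory receptor (OR) sgRNA and stand for single KOs, 2340 pair 2 members, 195 pair 2 sgRNAs of the same member and 97158 pair a member with another gene. No measured value entered this choice, and no member occurs in the metal transporter library.

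The 13 genes share the fold of the major facilitator superfamily, a large group of carriers that move small solutes across membranes by alternating between an outward-facing and an inward-facing state. Most are called orphans because their substrate is unknown or rests on a few reports. MFSD2A carries lysophosphatidylcholine with docosahexaenoic acid across the blood-brain barrier, and its relative MFSD2B exports sphingosine-1-phosphate from erythrocytes and platelets. MFSD8, also called CLN7, is a lysosomal membrane protein mutated in a form of neuronal ceroid lipofuscinosis. MFSD14A and MFSD14B, also called HIAT1 and HIATL1, are close paralogs, and MFSD13A is also known as TMEM180.

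In a combinatorial KO screen each cell receives 1 lentiviral vector with a pair of sgRNAs, and the share of each pair among all reads shows how cells with that double KO grew. All cells were 1 of 2 single-cell clones of HCT 116, HCT116-enCas12a-c8 with the engineered nuclease enCas12a or HCT116-Cas9-p2A-Blast-c1 with Cas9, transduced at low multiplicity and selected with puromycin. All 13 members were in Cas12a-SLCxSLC (plasmid input and weeks 1, 2, 3 and 5 in triplicate, in 3 count tables, of sublibraries 1, 2 and 3 with 4) and in Cas9-SLCxSLC (input and weeks 1, 2 and 3 in duplicate, week 4 with 1 replicate). MFSD6, MFSD11, MFSD13A and MFSD14A were also in Cas12a-SLCxEnzyme, in triplicate, with input, week 1 in glucose and weeks 3 and 5 in standard glucose medium, antimycin A (an inhibitor of respiratory complex III), galactose medium or hypoxia. The same 4 were in Cas9-SLCxEnzyme, in triplicate, with input, weeks 1 and 2, and weeks 3, 4 and 6 in glucose or hypoxia. Between the Cas12a and Cas9 screens the clone, the nuclease, the sgRNAs and the library amplification differ together, so their parts in a difference cannot be told apart. The methods also name nystatin in the medium of the Cas12a-SLCxSLC pools and of no other screen, which adds to this. The counts hold no readout of the targeted transcripts or proteins, so whether each gene was lost was not checked here.

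The reads per sample numbered 150938181 to 925299279 for Cas12a-SLCxSLC and 266158636 to 367300698 for Cas9-SLCxSLC. The SLCxEnzyme samples were smaller, at 19757899 to 33041652 with Cas12a and 14491264 to 37459181 with Cas9. The median sgRNA pair with a member had 558 to 2475.5 reads, depending on the sample. The centring of values rests on 144 OR-OR sgRNA pairs per table in Cas12a-SLCxSLC and 135 in Cas9-SLCxSLC, but on 6 in each SLCxEnzyme screen.

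Each member had 3 Cas12a sgRNAs in Cas12a-SLCxSLC, 6 Cas9 sgRNAs in Cas9-SLCxSLC and 6 sgRNAs in each SLCxEnzyme library. That makes 39, 78, 24 and 24 member sgRNAs. The Cas12a spacers are 23 bases long and the Cas9 spacers 18 to 21, with a median GC content of 52.17% in Cas12a-SLCxSLC and 52.63% in Cas9-SLCxSLC. All 24 Cas9 spacers of the SLCxEnzyme library are also in Cas9-SLCxSLC, while 9 of the 24 Cas12a ones are also in Cas12a-SLCxSLC. In 9 genes, 12 distinct pairs of a Cas12a and a Cas9 spacer share at least 12 bases on either strand, so that both nucleases were directed to overlapping stretches of the same gene. The sgRNAs of MFSD13A are printed first because this gene gave the lowest single KO value of the 13 with Cas9 and not with Cas12a. Spacers are written 5′ to 3′ without the PAM, and capitals mark the bases that a Cas12a spacer shares with a Cas9 spacer of the same gene, read on either strand.
Cas9 MFSD13A_1: GATGGGGAGCGACATAggag
Cas9 MFSD13A_2: gtcggccagcaaggcatgg
Cas9 MFSD13A_3: gaaccacaggaagttccga
Cas9 MFSD13A_4: gagggagcagtagaagttg
Cas9 MFSD13A_5: GTGGAAAGGGAGATATGGT
Cas9 MFSD13A_6: GTTGAGATGGGGAGCGACAT
Cas12a-SLCxEnzyme MFSD13A_3: TATGTCGCTCCCCATCTCAACaa
Cas12a-SLCxEnzyme MFSD13A_6: tccgACCATATCTCCCTTTCCAC
Cas12a-SLCxSLC MFSD13A_1: gggccgcctcaacccgccgcctc
Cas12a-SLCxSLC MFSD13A_2: ctgacgctcgtggacctgcacca
Cas12a-SLCxSLC MFSD13A_3: gttgatcttgtacactgagacaa

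MFSD8 and MFSD5 are shown because their single KOs were among the lowest of the members with Cas12a, and the paralogs MFSD14A and MFSD14B because a shared target site would confound their double KO. Capitals again mark the bases shared between a Cas12a and a Cas9 spacer of the same gene.
Cas12a-SLCxSLC MFSD8_1: agaGAACATCGTGTGGATGACTC
Cas12a-SLCxSLC MFSD8_2: tggtctaattatagaccaagaaa
Cas12a-SLCxSLC MFSD8_3: gagatatggccatatggacatca
Cas9 MFSD8_6: GAACATCGTGTGGATGACTC
Cas9 MFSD8_4: gttgttagatcatatactgc
Cas12a-SLCxSLC MFSD5_1: aggcccCCTACCTCTATAAACTC
Cas12a-SLCxSLC MFSD5_3: accaaactctctcaagactactt
Cas9 MFSD5_1: gtaGAGTTTATAGAGGTAGG
Cas12a-SLCxSLC MFSD14A_1: tcaggcaacGACTCTGGCACAGC
Cas9 MFSD14A_2: GACTCTGGCACAGCaaca
Cas12a-SLCxSLC MFSD14B_2: cccATCCATAAGCTGTACTTCGC
Cas9 MFSD14B_3: GCGAAGTACAGCTTATGGA
Cas9 MFSD14B_4: GCGAAGTACAGCTTATGGAT
No spacer of MFSD14A shares more than 8 bases in a row with one of MFSD14B among the 9 Cas12a combinations, or more than 7 among the 36 Cas9 combinations.

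With Cas12a, single KO of MFSD3, MFSD8, MFSD5 and MFSD11 gave the lowest values among the members at week 3, and MFSD10 the highest. Values here are LFCs, that is log2 ratios of a pair's share of reads to its share in the plasmid input, set to 0 at the median of the OR-OR pairs and averaged over the sgRNA pairs of a gene with ORs. MFSD8 had LFCs of −0.32, −0.29 and −0.34 in the 3 replicates (−0.31 ± 0.025, SD, n = 3). MFSD11, a member of the UNC93 branch, had −0.23, −0.23 and −0.27 (−0.25 ± 0.022). MFSD3, a relative of the endoplasmic reticulum acetyl-CoA transporter SLC33A1, had −0.38, −0.31 and −0.31 (−0.33 ± 0.045). These 3 genes were below the OR-OR level in every replicate, and they held ranks 48, 60 and 43 from the lowest among 274 genes. MFSD5, related to molybdate transporters, had −0.36, −0.33 and −0.23 (−0.31 ± 0.070, rank 49). MFSD10, also called TETRAN, had 0.27, 0.29 and 0.26 (0.27 ± 0.012, rank 260), above the OR-OR level in every replicate and above every other member. The remaining 8 members lay between −0.19 ± 0.030 for MFSD14B and 0.14 ± 0.0098 for MFSD9, with MFSD14A at 0.0010 ± 0.033 and MFSD2B at −0.011 ± 0.023. Neighbours in this order such as MFSD3, MFSD8 and MFSD5, or MFSD6 (0.10 ± 0.053), MFSD13A (0.11 ± 0.027) and MFSD9, differed by less than their replicate spread.

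The 3 Cas12a-SLCxSLC tables come from separate transductions and hold the same member sgRNAs with the same ORs, so each member was measured in each. Sublibrary 1 has the member sgRNA on either side of the vector, the other tables only on the second side. MFSD8 was alike in them, with LFCs of −0.32, −0.30 and −0.32 in sublibraries 1, 2 and 3 with 4, and so was MFSD11 with −0.24, −0.24 and −0.26. MFSD5 was not, since its −0.56 ± 0.11 in sublibrary 1 stood against −0.066 and −0.042 in the other tables. On the second side alone, where the same 36 sgRNA pairs were compared, MFSD5 had −0.55 ± 0.13 in sublibrary 1. MFSD10 ranged from 0.13 to 0.38 and MFSD14B from −0.31 to −0.044. The low week 3 mean of MFSD5 thus came mainly from 1 table, while those of MFSD8 and MFSD11 came from all 3. Within sublibrary 1, the lowest LFC of any member was −0.21 at week 2 and −0.32 at week 5. These weeks were set against another input sample than its weeks 1 and 3. Per the methods, sublibrary 1 was also amplified with another polymerase than the others, and an effect of this was not tested. With Cas12a, pairs of 2 members or of 1 member with itself are only in sublibrary 1.

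Each table was tested with edgeR on counts summed per gene, with the OR-OR counts as library size, and a gene was called at an adjusted p under 0.05 and an absolute log2 fold change over 0.3. In sublibrary 1, 3 of 13 members were called beside 38.0% of all 274 genes. MFSD10 was higher at a log2 fold change of 0.45 (SE 0.029, adjusted p = 8.2e-11), MFSD13A was higher at 0.37 (SE 0.033, adjusted p = 7.7e-09) and MFSD5 was lower at −0.43 (SE 0.053, adjusted p = 5.8e-07). With TMM library sizes MFSD10 and MFSD5 kept their calls and MFSD13A did not. MFSD8 alone was called in sublibrary 2 (log2 fold change −0.36, SE 0.025, adjusted p = 3.1e-09), beside 17.2% of all genes. It was again the 1 member called in sublibraries 3 and 4 (−0.35, SE 0.028, adjusted p = 4.3e-08), beside 20.4%. In sublibrary 1 its −0.19 did not reach the threshold on the fold change. No member was called with 1 sign in all 3 tables by edgeR, whether with OR-OR or TMM library sizes, or by DESeq2, against 10.6% of all genes. At an unadjusted p under 0.05, 11, 9 and 6 of the 13 members differed from the input in the 3 tables. The count sums weight abundant sgRNA pairs more than the mean LFC does, which is why both values are given.

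Among the sgRNAs, 1 sgRNA of MFSD8 was lower than the others. MFSD8_2 gave an LFC of −0.61 ± 0.13 (n = 3), MFSD8_1 −0.27 ± 0.092 and MFSD8_3 −0.060 ± 0.089. All 3 sgRNAs of MFSD5 were below 0, at −0.25 ± 0.20, −0.17 and −0.50. For MFSD3 the mean rested on a single sgRNA, with −0.84, 0.0068 and −0.17 for sgRNAs 1 to 3. The 3 sgRNAs of MFSD11 gave −0.49, −0.23 and −0.016, and the 3 of MFSD10 lay close together at 0.22 to 0.34. Those of MFSD14A spanned both signs at 0.28, 0.022 and −0.30, so its gene mean near 0 was not the value of each sgRNA.

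With Cas9 the order was another one, and MFSD13A stood apart from the other 12 members. Its LFCs at week 3 in Cas9-SLCxSLC were −0.72 and −0.76 (−0.74 ± 0.030, n = 2), rank 19 from the lowest of 258 genes. MFSD11 followed with −0.28 and −0.18 (−0.23 ± 0.067) and MFSD8 with −0.22 and −0.20 (−0.21 ± 0.014). These 3 members were below the OR-OR level in both replicates, and MFSD11 and MFSD8 did not differ beyond their spread. The other 10 lay between −0.14 for MFSD14A and 0.12 for MFSD2A, among them MFSD3 at 0.090, MFSD5 at 0.037 and MFSD10 at −0.021. MFSD13A fell early, with mean LFCs of −0.14 at week 1, −0.59 at week 2, −0.74 at week 3 and −0.77 in the single replicate of week 4. By edgeR, 3 of 13 members were called at week 3 against the input, beside 31.8% of 258 genes. The log2 fold change of MFSD13A was −0.51 (SE 0.061, adjusted p = 5.8e-06), or −0.62 relative to the median of all genes, which lay at 0.11. MFSD3 at 0.40 and MFSD2A at 0.31 were called higher, but relative to that median their values were 0.29 and 0.20, and with TMM library sizes or DESeq2 only MFSD13A remained called.

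The 6 Cas9 sgRNAs printed above for MFSD13A agreed in direction in both Cas9 libraries. In Cas9-SLCxSLC the sgRNA numbers themselves had different medians over all genes (−0.44 to 0.38), so sgRNA values are given relative to the median of their number. On that scale MFSD13A_3 had −1.18, MFSD13A_4 −1.09, MFSD13A_6 −0.67, MFSD13A_1 −0.64, MFSD13A_5 −0.47 and MFSD13A_2 −0.042. In Cas9-SLCxEnzyme, where the same spacers were cloned and transduced again, the values were −1.16 for MFSD13A_4, −0.77 for MFSD13A_3, −0.69 for MFSD13A_6, −0.59 for MFSD13A_1, −0.53 for MFSD13A_5 and −0.063 for MFSD13A_2. MFSD13A_2 was nearest to 0 in both, and Pearson's r between the libraries over the 6 sgRNAs was 0.90. This r is a description over 6 points of shared sequence, as are those of MFSD14A (0.94), MFSD6 (0.76) and MFSD11 (0.048). For MFSD8, 4 of the 6 Cas9 sgRNAs were below 0 relative to their number, the lowest being MFSD8_4 at −0.40.

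In Cas9-SLCxEnzyme the single KO of MFSD13A had LFCs of −1.04, −1.14 and −0.91 at week 3 in glucose (−1.03 ± 0.11, n = 3), rank 29 of 132 genes. It went from −0.33 at week 1 and −0.88 at week 2 to −1.13 at week 4 and −1.20 at week 6. In hypoxia its LFCs were −0.94, −1.05 and −1.16 at weeks 3, 4 and 6. By edgeR 3 of 4 members were called at week 3, beside 64.4% of 132 genes. MFSD13A was lower at a log2 fold change of −0.45 (SE 0.064, adjusted p = 5.1e-07), or −0.64 relative to the all-gene median of 0.20. MFSD14A at 0.41 and MFSD6 at 0.33 were called higher on this scale, but the mean of sgRNA pair LFCs put them lower than the input, at −0.19 ± 0.079 and −0.31 ± 0.017, where the median of all genes was −0.41. Their direction against the input thus flipped with the scaling, and TMM and DESeq2 called only MFSD13A.

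In Cas12a-SLCxEnzyme, none of the 4 members was called at week 3 in glucose by edgeR, with OR-OR or TMM library sizes, or by DESeq2, beside 33.3% of 132 genes. The edgeR test at an unadjusted p under 0.05 found 1, MFSD11, with a log2 fold change of −0.28 (adjusted p = 0.0146), and without replicate 3 this gene was called at −0.31. The LFCs of MFSD11 were −0.35, −0.29 and −0.19 (−0.28 ± 0.083, rank 42 of 132), close to its −0.25 in Cas12a-SLCxSLC. MFSD13A had −0.23, −0.15 and −0.025 (−0.13 ± 0.10), MFSD6 −0.10 ± 0.058 and MFSD14A 0.020 ± 0.036. The 9 spacers that both Cas12a libraries hold gave LFCs with r = 0.73 between them, again a description. MFSD11_1, for example, gave −0.49 and −0.54, and MFSD14A_1 gave 0.28 and 0.17.

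The single KO values of the members were then compared between nucleases with limma on the replicate LFCs at week 3 of Cas12a-SLCxSLC (n = 3) and Cas9-SLCxSLC (n = 2). Of 13 members 3 differed by more than 0.3 at an adjusted p under 0.05, beside 27.5% of 258 genes. MFSD13A was higher with Cas12a by 0.85 (SE 0.034, adjusted p = 1.3e-08). MFSD3 was lower with Cas12a by 0.42 (difference −0.42, SE 0.036, adjusted p = 2.5e-06) and so was MFSD5 (difference −0.34, SE 0.046, adjusted p = 7.4e-05), the latter under the threshold at −0.30 without replicate 1 of Cas9-SLCxSLC. The Cas12a values here pool 3 tables. MFSD5 had −0.56 in sublibrary 1 but −0.066 and −0.042 in the other tables. The low Cas12a mean of MFSD3 rested mainly on 1 sgRNA. MFSD10 differed by 0.29, under the threshold, and by 0.34 without replicate 2 of Cas9-SLCxSLC. For MFSD11 the difference was −0.016 (SE 0.037, adjusted p = 0.716) and for MFSD8 −0.10 (SE 0.032). On mean LFCs, MFSD8 and MFSD11 were the members that lay below the OR-OR level in every replicate of both screens by at least 0.18. On summed counts this depended on the scale with Cas9. There, edgeR gave MFSD8 a log2 fold change of 0.0059 (adjusted p = 0.89) and MFSD11 −0.090 (adjusted p = 0.036) at week 3 against the input. Relative to the all-gene median of 0.11, these were −0.10 and −0.20.

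Spacers that overlap the same stretch of DNA allow a closer comparison, since the target is then nearly the same. The Cas12a-SLCxEnzyme sgRNA MFSD13A_3 shares 16 bases with Cas9 MFSD13A_1 and 20 with Cas9 MFSD13A_6. Relative to the median of its number its LFC was −0.044, against −0.59 and −0.69 for the Cas9 sgRNAs in Cas9-SLCxEnzyme and −0.64 and −0.67 in Cas9-SLCxSLC. MFSD13A_6 of Cas12a-SLCxEnzyme, with 19 bases in common with Cas9 MFSD13A_5, gave −0.21 against −0.53 and −0.47. Both Cas12a sgRNAs were thus nearer to 0 than the Cas9 sgRNAs at the same place. For MFSD14A both nucleases gave values above the median, 0.36 for Cas12a-SLCxSLC MFSD14A_1 and 0.40 for Cas9 MFSD14A_2 in Cas9-SLCxSLC, which share 14 bases. For MFSD8, the pair MFSD8_1 and Cas9 MFSD8_6 with 20 shared bases gave −0.19 and 0.0051. The pair of MFSD5_1 and Cas9 MFSD5_1 with 17 shared bases gave −0.17 and −0.12. A gap at 1 site was not limited to MFSD13A. Cas12a-SLCxSLC MFSD9_3 gave −0.089 against 0.48 for Cas9 MFSD9_4, which shares 19 bases with it, and MFSD6_2 gave 0.37 against 0.062 in Cas9-SLCxSLC and 0.27 in Cas9-SLCxEnzyme for Cas9 MFSD6_4, which shares 15. The other overlapping sgRNAs, of MFSD14B, MFSD2A and MFSD11, lay between −0.12 and 0.12 with either nuclease.

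Over time, MFSD8 and MFSD11, which were low with Cas12a, fell slowly. Averaged over the 3 tables, MFSD8 had LFCs of −0.087, −0.24, −0.31 and −0.35 at weeks 1, 2, 3 and 5, and MFSD11 −0.00080, −0.070, −0.25 and −0.31. Weeks 1 and 3 of sublibrary 1 were set against another input sample than its weeks 2 and 5, and week 2 had no usable column for sublibraries 3 and 4, so successive steps of these series are not fully comparable. Against week 1, edgeR called no member at week 3 of sublibrary 1 or at week 5 of the other Cas12a-SLCxSLC tables, where 13.5%, 17.2% and 17.9% of all genes were called. TMM and DESeq2 also called 0, while 9, 9 and 6 members had an unadjusted p under 0.05 by edgeR. The log2 fold changes of MFSD11 in the 3 tables were −0.27, −0.22 and −0.28, and those of MFSD8 −0.26, −0.20 and −0.22. MFSD3 and MFSD5, also low at week 3, changed less than MFSD11 in each table. Their values were −0.053, −0.084 and −0.14 for MFSD3 and −0.11, −0.20 and −0.13 for MFSD5.

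In Cas9-SLCxSLC 1 member fell between weeks 1 and 3, MFSD13A at a log2 fold change of −0.40 (SE 0.061, adjusted p = 0.00013), beside 13.2% of all genes. In Cas12a-SLCxEnzyme 3 of 4 members were called lower at week 5 than at week 1 in glucose, beside 50.8% of all genes. The log2 fold changes were −0.39 for MFSD11, −0.44 for MFSD13A and −0.33 for MFSD6, but relative to the median of all genes, at −0.28, they were −0.11, −0.15 and −0.050. In Cas9-SLCxEnzyme MFSD11 at −0.47 and MFSD13A at −0.69 were called lower at week 6, beside 54.5%, and relative to the median of −0.40 they had −0.067 and −0.29. TMM library sizes ended these calls in both SLCxEnzyme screens and called MFSD14A higher in Cas12a-SLCxEnzyme.

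The Cas12a-SLCxEnzyme screen asks whether a single KO acts differently when respiration, sugar source or oxygen change. At week 3, edgeR called no member between antimycin A and glucose (32.6% of all genes called; 2 of 4 members at an unadjusted p under 0.05), galactose and glucose (21.2%; 0) or hypoxia and glucose (0.0%; 0). At week 5, MFSD11 had LFCs of −0.57, −0.52 and −0.43 in glucose (−0.51 ± 0.071) and −0.12, −0.21 and −0.10 in antimycin A (−0.14 ± 0.057). MFSD6, a surface protein used by enterovirus D68 to enter cells, had −0.44, −0.21 and −0.49 in glucose (−0.38 ± 0.15) and 0.047, −0.057 and −0.00080 in antimycin A (−0.0038 ± 0.052). For both genes every antimycin A replicate lay above every glucose replicate, but the share of all genes that did so was not counted. In edgeR these 2 members were called higher in antimycin A, MFSD11 at a log2 fold change of 0.41 (SE 0.093, adjusted p = 0.00035) and MFSD6 at 0.39 (SE 0.10, adjusted p = 0.0017), beside 50.0% of all genes. Relative to the all-gene median of 0.19 the values were 0.22 and 0.21. Under TMM and DESeq2 neither was called and MFSD14A was called lower instead, and without replicate 3 the adjusted p of MFSD6 was 0.055.

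In hypoxia at week 5 the LFCs of MFSD6 were −0.18, −0.30 and −0.23 (−0.24 ± 0.059), which overlapped with those in glucose. On summed counts, edgeR called MFSD6 higher in hypoxia at a log2 fold change of 0.51 (SE 0.11, adjusted p = 0.0018), beside 9.09% of all genes, and so did TMM and DESeq2. Without replicate 1 the log2 fold change was 0.32 with an adjusted p of 0.21, and limma on the mean LFCs did not call it. Galactose at week 5 gave no called member by edgeR (33.3% of all genes; 2 of 4 at an unadjusted p under 0.05), and MFSD11 had −0.27 ± 0.27 there, with a wide spread. In Cas9-SLCxEnzyme, edgeR called no member between hypoxia and glucose at week 3 (2.27% of all genes; 0 at an unadjusted p under 0.05), week 4 (2.27%; 0) or week 6 (13.6%; 1). TMM and DESeq2 also called 0.

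Cas12a-SLCxSLC sublibrary 1 also holds pairs in which both sgRNAs target the same member, 9 per gene. These spread the members further apart than the single KOs of the same sublibrary, which ran from −0.56 to 0.38. MFSD5 had an LFC of −0.82 ± 0.25 (n = 3), MFSD14B −0.58 ± 0.21, MFSD8 −0.49 ± 0.12 and MFSD3 −0.46 ± 0.047. On the other side, MFSD9 had 0.63 ± 0.041, MFSD13A 0.63 ± 0.15, MFSD6 0.88 ± 0.10 and MFSD10 1.02 ± 0.14, which ranks 254 of 258 genes. The median gene was at −0.0033. Across genes the LFC of such pairs correlated at r = 0.93 with the single KO, here averaged over all Cas12a-SLCxSLC tables. In Cas9-SLCxSLC, sgRNAs were combined only with those of equal number, so both sides of such a pair hold the same spacer. With Cas12a the 3 sgRNAs of a gene were also combined with each other, so the screens are not comparable here. The Cas9 pairs were low, with a median of −2.66 over 237 genes. Of 78 member pairs with Cas9, 1 to 5 per gene passed the minimum input count, in the 12 members that had any. There, members ranged from −4.09 for MFSD11 to −1.79 for MFSD14B.

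The next question was whether 2 members compensate for each other. It was addressed with dLFC, the observed LFC of a double KO minus its expected LFC, averaged over sgRNA pairs. The expected LFC was the sum of both single KOs plus a constant for each sample. This constant set the median dLFC over all sgRNA pairs of 2 different genes in a count table to 0. A value below 0 thus means fewer cells than the single KOs add up to after this centring, not against their plain sum. The 13 members form 78 gene pairs. With Cas12a their dLFC at week 3 ran from −0.19 to 0.28 with a median of 0.018, and none passed 0.3. With Cas9 it ran from −0.27 to 0.42, and 2 pairs passed 0.3 in the mean. MFSD3/MFSD5 had 0.24 and 0.59 in the replicates (mean 0.42), and MFSD2B/MFSD9 had 0.13 and 0.47 (mean 0.30). Their Cas12a values were 0.068 and −0.069, and neither met the test for an interaction. No pair of 2 members was scored in either screen.

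The paralogs MFSD14A and MFSD14B, whose spacers share no long stretch, showed a double KO near the expected value. With Cas12a, dLFC was −0.015, 0.037 and −0.0078 (0.0047 ± 0.028, n = 3), from an observed LFC of −0.29 and an expected one of −0.30. Over its 18 sgRNA pairs, which share sgRNAs, dLFC ran from −0.87 to 0.56, with 3 below −0.3 and 2 above 0.3. With Cas9 the replicates gave 0.10 and −0.23 (−0.066 ± 0.24, n = 2), so the replicates differed in sign. The lipid transporters MFSD2A and MFSD2B gave 0.0059 ± 0.024 with Cas12a, and 0.055 and −0.22 with Cas9 (−0.081 ± 0.19). The replicate spread of the Cas9 values leaves effects of about that size undetectable there.

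Among pairs with other genes, Cas12a-SLCxSLC gave 5 scored interactions of 3263 member pairs, all below the expected value, beside 0.465% of all 33153 pairs. A pair was scored where its dLFC passed 0.3 in size and all 3 replicates had an adjusted p below 0.1 in the methods' paired t-test on its sgRNA pairs at weeks 2, 3 and 5, with the saturation and week 1 filters of the study. This scoring was rebuilt from the text of the methods. Over all genes it called 154 of 33153 pairs in this screen. The paper reports more for the same screen, so the calls here are not the study's set of calls. MFSD6/SLC35B1 had dLFCs of −0.59, −0.43 and −0.72 at week 3 (−0.58 ± 0.15, SD). SLC35B1 exchanges ATP and ADP across the membrane of the endoplasmic reticulum. MFSD13A/SLC7A1 had −0.57, −0.49 and −0.57 (−0.54 ± 0.047), where SLC7A1 takes up arginine and lysine. MFSD13A/SLC30A9 had −0.54, −0.41 and −0.67 (−0.54 ± 0.13), where SLC30A9 exports zinc from mitochondria. MFSD2B/SLC25A26 had −0.40, −0.41 and −0.43 (−0.41 ± 0.018) and MFSD6/SLC25A26 −0.43, −0.26 and −0.26 (−0.32 ± 0.095). SLC25A26 brings S-adenosylmethionine into mitochondria. In all 5 pairs every replicate was below 0.

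These 5 interactions appeared after week 1, when their dLFCs lay between −0.093 and 0.014, and at week 5 they lay between −0.92 (MFSD2B/SLC25A26) and −0.60 (MFSD6/SLC25A26). All 4 partners are among the 6 SLCs that the study names as essential, and their own single KOs had LFCs of −4.51 (SLC35B1), −2.42 (SLC25A26), −2.37 (SLC30A9) and −2.31 (SLC7A1). The expected LFC of each pair was −2.06 or lower. Over the 6 essential SLCs, 5 of 78 member pairs (6.41%) were scored, against 119 of 1527 pairs (7.79%) of those SLCs in all. The median dLFC was −0.15 over the member pairs and −0.18 over all of them. By SLC, 12 of 13 member pairs were below 0 for SLC25A26 (median −0.20, all genes −0.24) and for SLC30A9 (−0.21, all genes −0.27), and 11 of 13 for SLC7A1 (−0.22, all genes −0.20) and for SLC35B1 (−0.13, all genes −0.23). For MTCH2, an insertase of the outer mitochondrial membrane, 6 of 13 were below 0.

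With limma on the replicate dLFCs against 0, 25 member pairs were called, 22 of them lower, beside 1.93% of all pairs. Of the 25, 17 had an essential SLC as partner, and all 17 were lower. With Cas9, the 5 scored pairs had dLFCs of −0.14 (MFSD6/SLC35B1), −0.32 (MFSD13A/SLC7A1), 0.063 (MFSD13A/SLC30A9), 0.15 (MFSD2B/SLC25A26) and −0.18 (MFSD6/SLC25A26), and none was scored. The lowest pair of all with a member, MFSD13A/SLC35B1, had −0.36, −0.60 and −0.89 (−0.62 ± 0.26) and was not scored. On the positive side no pair was scored: MFSD13A/SLC52A3 reached 0.35 ± 0.10, MFSD6/SLC38A7 0.31 ± 0.056 and MFSD10/SFXN3 0.30 ± 0.053, and each was as high at week 1 (0.36, 0.31 and 0.35). No interaction was scored with the 221 member pairs of lysosomal and endosomal transporters or the 169 of choline, phospholipid and sphingosine phosphate transporters. Over all genes it was 18 of 4233 pairs (0.425%) and 2 of 3263 (0.0613%), so none among the members is near these shares.

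In Cas9-SLCxSLC 49 of 3263 member pairs were scored (1.50%), 27 lower and 22 higher, beside 2.13% of all pairs. There the methods' paired t-test was run once over the merged replicates of weeks 2 to 4, at an adjusted p under 0.005. Over all genes, the rebuilt scoring with its filters called 705 of 33153 pairs in this screen. The paper reports far fewer at the same threshold on the adjusted p. The member pairs named below are thus calls of the rebuilt scoring and need not be interactions in the study. The cause of this gap was not tested. The 49 pairs had 43 different partners. MFSD11 and MFSD14B had 8 scored pairs each, MFSD5 6 and MFSD9 4, the last all higher, and the members' median of 3 stood beside 5 over all genes. All 49 had the sign of week 3 already at week 1, with a median absolute dLFC of 0.25 at week 1 and 0.44 at week 3. The count depended on the replicates, as 0 pairs were scored without replicate 1 and 29 without replicate 2, of which 7 were among the 49. It was 11 with the input replicate of the same number as the reference.

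The lowest value was LETM1/MFSD5, with dLFCs of −0.91 and −1.18 (−1.05 ± 0.19, n = 2). Over all its partners LETM1 had 25 scored pairs, the most of any gene in this screen, beside a median of 5. LETM1 exchanges cations for protons across the inner mitochondrial membrane, and its own single KO had an LFC of −3.93 with Cas9 and −0.78 with Cas12a. LETM1/MFSD8 had −0.88 and −0.91 (mean −0.89) and was not scored, and LETM1/MFSD3 had −0.032 and −1.46. With Cas12a, LETM1/MFSD5 had a dLFC of 0.019 ± 0.029 (n = 3).

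The next lowest scored pairs were MFSD2A/SLC25A13 (−0.67 and −0.62), with the mitochondrial aspartate/glutamate carrier citrin, and MFSD2B/SFXN3 (−0.64 and −0.56), with a sideroflexin. MFSD4B, also called sodium-dependent glucose transporter 1, had −0.70 and −0.48 with the reduced folate carrier SLC19A1. Of the remaining pairs of the 15 lowest, MFSD6/SLC39A10 had a mean of −0.58, MFSD14A/SLC6A9 −0.53, MFSD5/SLC39A4 −0.52, MFSD11/SLC39A3 −0.52, MFSD14B/SLC16A13 −0.51, MFSD14B/TMEM165 −0.50 and MFSD8/SLC26A2 −0.50. The last were MFSD11/SLC30A6 (−0.47), MFSD2B/SLC39A11 (−0.47), MFSD3/SLC6A20 (−0.47, from −0.84 and −0.10) and MFSD3/SLC25A27 (−0.46).

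Above the expected value, MFSD9/SLC35E1 was highest at 0.75 and 0.65 (0.70 ± 0.072, n = 2). MFSD13A/SLC33A1 had 0.48 and 0.70 (0.59 ± 0.16), where the single KO of the acetyl-CoA transporter SLC33A1 had an LFC of −0.82 and that of MFSD13A −0.74. MFSD8/SLC66A1 had 0.51 and 0.39 (0.45 ± 0.086) and MFSD3/SLC66A1 0.32 and 0.53 (0.42 ± 0.15). SLC66A1, also called PQLC2, exports cationic amino acids from lysosomes, the compartment of MFSD8. These were the 2 scored pairs among 221 with lysosomal and endosomal transporters, against 64 of 4233 (1.51%) over all genes. MFSD13A/SLC33A1 was the 1 scored pair among 169 with choline, phospholipid and sphingosine phosphate transporters, against 68 of 3263 (2.08%) over all genes, although SLC33A1, on that list, carries acetyl-CoA. No member pair was scored among the 78 with essential SLCs, against 52 of 1527 over all genes. The other pairs of the 15 highest lay between 0.37 for MFSD2B/NIPAL2 and 0.55 for MFSD4B/SLC12A4. They were MFSD2A/SLC6A8, MFSD9/SLC10A3, MFSD5/SLC45A1, MFSD5/SLC25A11, MFSD9/SLC25A42, MFSD5/SLC25A15, MFSD10/SLC39A10, MAGT1/MFSD13A and MFSD11/SLC10A3. MFSD2A/SLC30A4 at 0.60 was higher than most of them and was not scored.

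Few interactions were shared between the nucleases, over all genes as well. No member pair was scored in both SLCxSLC screens, from 5 scored with Cas12a and 49 with Cas9. Over all pairs 20 were scored in both, from 154 with Cas12a and 705 with Cas9. The 5 Cas12a calls are too few to show whether members overlapped less than other genes. Of the 49 pairs scored with Cas9, 33 had the same sign with Cas12a, where their dLFCs lay between −0.31 and 0.17 and 1 passed 0.3, MFSD6/SLC39A10 at −0.31. Across all 3263 member pairs, which share genes and sgRNAs, dLFC with Cas12a and Cas9 correlated at r = 0.046, against 0.11 over all pairs. Between replicates of 1 screen r was 0.46 to 0.50 with Cas12a and 0.38 with Cas9.

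The SLCxEnzyme libraries pair MFSD11, MFSD13A and MFSD14A with 41 partners each and MFSD6 with 11, which makes 134 gene pairs of 6 sgRNA pairs. With Cas12a at week 3, 1 of 134 pairs was scored in glucose (1.95% of all pairs), 1 in antimycin A (2.25%), 1 in galactose (0.467%) and 0 in hypoxia (2.29%) by the methods' paired t-test. It was the same pair in the 3 media, BCAT2/MFSD13A, and its dLFC was above 0. BCAT2 is the mitochondrial aminotransferase of branched-chain amino acids. The replicates gave 0.19, 0.55 and 0.71 in glucose (0.48 ± 0.27, adjusted p = 0.036 by the methods' paired t-test), 0.74, 0.52 and 0.41 in antimycin A (0.55 ± 0.17, adjusted p = 0.0020) and 0.33, 0.34 and 0.59 in galactose (0.42 ± 0.15, adjusted p = 0.045). In hypoxia it had 0.43 ± 0.056 with an adjusted p of 0.051. All 12 values were above 0, but the week 1 value was 0.27, and the call was lost without any 1 of the replicates in glucose and in galactose, and without replicate 1 in antimycin A (adjusted p = 0.13). With Cas9 the pair gave 0.068 in glucose and −0.018 in hypoxia.

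With Cas9, 0 of 134 member pairs were scored in glucose (2.46% of all pairs) and 1 in hypoxia (1.78%) by the same test. That call was lost without any 1 of the replicates.

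Whether a dLFC changed with the medium was tested with limma over the 134 member pairs and all 2356 pairs. No member pair changed by more than 0.3 at an adjusted p under 0.05 between antimycin A and glucose (1.40% of all pairs; 3 member pairs at an unadjusted p under 0.05), between hypoxia and glucose with Cas12a (0.0%; 2) or with Cas9 (0.0%; 2). Between galactose and glucose 1 member pair was called, beside 2.46% of all pairs, and 8 had an unadjusted p under 0.05. It was MFSD13A/SDHA, with the catalytic subunit of succinate dehydrogenase, which both the tricarboxylic acid cycle and the respiratory chain use. Its dLFCs were 0.42, 0.18 and 0.67 in glucose and 1.00, 1.13 and 1.39 in galactose, a difference of 0.75 (SE 0.15, adjusted p = 0.020) with no overlap. Without replicate 1, 2 or 3 the difference was 0.83, 0.65 and 0.76 with adjusted p of 0.151, 0.193 and 0.102.

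MFSD14A and MFSD11 were also paired with SDHA, with values above 0 in glucose and galactose. MFSD14A/SDHA had 0.65, 0.49 and 0.80 in glucose and 1.40, 0.39 and 1.66 in galactose, and MFSD11/SDHA had 0.33, 0.44 and 0.61 in glucose and 0.64, 0.26 and 0.92 in galactose, with overlap in both. The single KO of SDHA had an LFC of −4.46 in galactose, and none of these 3 pairs was scored. High values were also seen for MFSD13A/PKM with pyruvate kinase in antimycin A (0.88 ± 0.19) and MFSD11/RRM1 with a ribonucleotide reductase subunit in hypoxia (1.01 ± 0.65). Among the low values was MFSD14A/RRM1 with Cas9 (−0.58 ± 0.34 in glucose and −0.71 ± 0.45 in hypoxia). None of these was scored.

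Other low unscored values in Cas12a-SLCxEnzyme were GOT2/MFSD11 (−0.35 ± 0.083) and GOT1/MFSD11 (−0.31 ± 0.12) in glucose, with the aspartate aminotransferases. In galactose GLUD1/MFSD11, with glutamate dehydrogenase, had −0.36 ± 0.15. Each of these was below 0 in all 3 replicates. MFSD14A and MFSD13A were low with MTHFD1, an enzyme of folate metabolism, at −0.28 ± 0.26 in glucose and −0.24 ± 0.061 in hypoxia for MFSD14A and −0.35 ± 0.48 in galactose for MFSD13A. Low pairs were further MFSD13A/OGDH in antimycin A (−0.34 ± 0.22) and MFSD14A/UGP2 in hypoxia (−0.24 ± 0.094). Values above 0 were seen for MFSD14A/OGDH in galactose (0.68 ± 0.70) and MFSD13A/RRM1 in hypoxia (0.56 ± 0.12).

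With Cas9 in glucose, pairs at the ends of the order were MFSD13A/SHMT1 at −0.26 ± 0.056, MFSD14A/UNC93B1 at 0.20 ± 0.074 and MFSD6/TYMS at 0.16 ± 0.055. In hypoxia MFSD11/OGDH had −0.44 ± 0.28, COASY/MFSD14A 0.30 ± 0.13 and MFSD6/SFXN3 0.26 ± 0.10. By list, 0 of 15 member pairs with enzymes of the tricarboxylic acid cycle and pyruvate entry, 0 of 23 with nucleotide synthesis enzymes and 0 of 12 with glycolysis and pentose phosphate enzymes were scored in any medium with either nuclease. Over all pairs of these lists, 1.64 to 7.67%, 0.282 to 4.23% and 0 to 2.04% were scored, depending on screen and medium. With so few member pairs, these zeros do not set the members apart.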

How the data were processed

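The authors deposited unscaled read counts of each sgRNA pair. Per their methods and processing notes, cutadapt 4.8 trimmed the reads and MAGeCK 0.5.9.2.4 counted those that matched a spacer pair without error, after the reads of a Cas9 pair were joined. Of 129 samples, 123 have a column of their own. 3 columns of week 2 of sublibraries 3 and 4 could not be given to a sample and were not used. Such counting leaves out reads with an error in a spacer. Replicates are separate transductions of 1 clone, so p-values of edgeR, DESeq2 and limma measure the spread between these. The edgeR and DESeq2 fits also hold the plasmid input samples. The p-values of the methods' paired t-test, used to score interactions, instead measure the spread over sgRNA pairs and merged weeks or replicates.

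For LFCs, 1 was added to each count, the sample's share was set against the mean input, and the median OR-OR value was subtracted. sgRNA pairs with a mean input under 10 reads were left out, which took 7 member pairs in sublibrary 1 and 79 in Cas9-SLCxSLC. In the Cas9 tables, the OR-OR pairs shared with a control library (8 and 6) were left out, since their median log2 ratios at week 3 of −2.63 and −3.06 stood against 0.037 and 0.81 for the library's own pairs. Interactions were scored with the methods' paired t-test, rebuilt from their text, adjusted by Benjamini, Krieger and Yekutieli's procedure, at an adjusted p under 0.1 (Cas12a-SLCxSLC), 0.005 (Cas9-SLCxSLC) or 0.05 (SLCxEnzyme). This test takes sgRNA pairs, weeks and replicates as separate values. Calls within 0.1 of the week 1 dLFC were removed, as were positive ones with an expected LFC under −0.3 and an observed one below both single KOs. Single KOs were tested with edgeR 4.0.16 (quasi-likelihood) in R 4.3.3 and differences of LFC or dLFC with limma 3.58.1, with Benjamini-Hochberg adjustment over all genes or pairs of a table. DESeq2 1.42.0 and TMM were alternatives. LFCs used Python 3.11.15, numpy 2.4.6, pandas 2.3.3, scipy 1.17.1 and statsmodels 0.14.6. Scripts were tested on simulated data.

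All 13 members are named, with every scored pair (the 15 lowest and 15 highest where over 30), both paralog pairs, member-member pairs past 0.3 and, per screen and medium, the 3 lowest and 3 highest pairs among those with 1 sign in every replicate. Members and lists were chosen with earlier results of these data known. Some pairs that this rule names are not reported here. Guides were not placed on a genome, and those of MFSD3 are not printed. Doses of antimycin A and shares of galactose conflict between sources and are not given.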

Additional observations from a re-analysis of the deposited data

Results flagged for a closer look

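The single KO of 3 members differed between Cas12a-SLCxSLC and Cas9-SLCxSLC at week 3 in a direct test of the difference with limma. Cas12a minus Cas9 was 0.85 for MFSD13A, −0.423 for MFSD3 and −0.344 for MFSD5. For MFSD5 the difference was −0.30 without replicate 1 of Cas9-SLCxSLC. Its Cas12a LFC was −0.56 in sublibrary 1 but −0.066 and −0.042 in the other tables. For MFSD3 the Cas12a mean rested mainly on 1 sgRNA, MFSD3_1 at −0.84. MFSD13A was also lower in the second Cas9 library, Cas9-SLCxEnzyme, at an LFC of −1.03 ± 0.11 (n = 3), against −0.13 ± 0.10 (n = 3) in Cas12a-SLCxEnzyme. The dLFC of MFSD13A/SDHA was higher in galactose than in glucose by 0.75 in a direct test with limma, and this call was lost when any 1 of the 3 replicates was left out. Groups had at most 3 samples, so no single sample was tested for standing apart.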

How the results depend on the processing

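For the single KOs at week 3, 3 members were called in Cas9-SLCxSLC, against 1 with TMM, 1 with DESeq2, 1 with limma on mean LFCs and 9 with the OR-OR pairs of the control library, where MFSD13A turned to a log2 fold change of 0.276. In Cas9-SLCxEnzyme it was 3, against 1 with TMM and 1 with DESeq2 (2 to 3 leaving out a replicate), and limma on mean LFCs turned MFSD11 to −0.328, MFSD14A to −0.185 and MFSD6 to −0.305. In Cas12a-SLCxEnzyme it was 0, and 0 to 1 leaving out a replicate. Late against week 1, 6 calls over all screens became 2 with TMM, 2 with DESeq2 and 13 with limma on mean LFCs (6 to 7 leaving out a replicate, counting the call of Cas9-SLCxSLC, which could not be refitted). The 3 calls between media in Cas12a-SLCxEnzyme became 0 at a log2 fold change over 1 (2 to 4 leaving out a replicate), and the 3 between nucleases 2 to 4. For interactions, the 5 of Cas12a-SLCxSLC became 3 with a pseudocount of 10, 0 with week 3 only, 25 with limma and 6 to 13 leaving out a replicate. The 49 of Cas9-SLCxSLC became 77 with neither filter, 11 with the input of the same number, 0 with week 3 only and 0 to 29 leaving out a replicate. It was 49 with limma, 21 of them shared, and 58 with dLFC centred per combination of sgRNA numbers, 47 of them shared. The 3 calls of Cas12a-SLCxEnzyme, counted per medium, became 11 with limma and 0 to 1 leaving out a replicate, and the 1 of Cas9-SLCxEnzyme 0 with a pseudocount of 10, 0 with limma and 0 leaving out any replicate. The count of calls between media, 1, was 0 to 1 leaving out a replicate, where MFSD13A/SDHA was never called. The cause of these changes was not tested, apart from fewer samples where replicates were left out.

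Of the single pairs' values under the alternatives, 245 of 384 kept direction and side of the threshold and 139 lost the call. Of those of single KOs, 550 were the same, 20 passed the threshold only there, 23 lost it and 4 turned. With the replicate number as a block the counts of calls by edgeR and limma did not change (0, 3, 0, 3, 6, 3, 0 and 1). Same-numbered samples correlated at a median of 0.13 to 0.50 of their deviations from the group means, over 0.1 in 13 of 18 cases in sublibrary 1, 17 of 18 in sublibrary 2, 8 of 9 in sublibraries 3 and 4, 6 of 6 in Cas9-SLCxSLC (2 numbers), 60 of 108 in Cas12a-SLCxEnzyme and 59 of 84 in Cas9-SLCxEnzyme. No screen with 3 numbers had every pair over 0.1, and the main tests did not pair samples by number. Per the methods each replicate was harvested at successive weeks, so equal numbers may well mark the same transduced pool. The rule over 0.1 cannot exclude this, and the main tests between weeks or media then leave a pairing out. Other-numbered samples had medians of −0.06 to −0.27. Cas9-SLCxSLC without a replicate could not be fitted with edgeR, since no residual degrees of freedom were left. The OR-OR pairs of the control library, the centring per sgRNA numbers and the alternatives for late against week 1 were chosen after seeing the data. The 6 OR-OR pairs of each SLCxEnzyme library limit the zero level of its LFCs.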
